A study of Homo sapiens with 8 samples.

Results

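The regions described here are the open chromatin regions of 2 stretches of the human genome, one on the distal long arm of chromosome 8 and one on the long arm of chromosome 13, in which the share of peaks in a SETD2-edited clone of KOPN-8 leukemia cells departed from that of its controls. The 8 deposited peak lists were merged wherever they shared at least 1 bp, and every merged region that started from 120 Mb to the end of chromosome 8, or between 50 and 75 Mb of chromosome 13, was kept (hg19). This gave 2790 of 133028 regions: 1826 in the chromosome 8 zone and 964 in the chromosome 13 zone. The zones were selected on the peak share of the KOPN-8 clone over its controls. All values of that contrast, and the positions derived from it, are therefore given as a description with no test.

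The study profiled open chromatin by ATAC-seq in 2 B-lineage acute lymphoblastic leukemia (B-ALL) cell lines, each as a CRISPR-edited clone and an empty vector control. The KOPN-8 clone, named BA, and the 697 clone, named BM_B, both carried a SETD2 guide RNA and are labelled heterozygous SETD2 knockouts. The KOPN-8 and 697 controls carried an empty guide vector and are labelled SETD2 wild type. Each of the 4 groups had 2 libraries, labelled biological replicates, and all cells were grown in RPMI medium with serum. Each edited group is 1 clone, so an effect of the edit, a chance difference of the founder cell and a change acquired during cloning cannot be told apart. The labels do not say whether the control cells were cloned, and neither the edit nor the cell type was checked against marker loci here.

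ATAC-seq uses the Tn5 transposase, which inserts sequencing adapters where DNA is not wrapped tightly in nucleosomes, so the number of fragments at a site depends both on how open it is and on how many copies of it the cells hold. SETD2 is the enzyme that trimethylates lysine 36 of histone H3 over transcribed genes. The chromosome 8 zone holds MYC, which encodes a transcription factor that drives cell growth, together with distal enhancers that act on it in blood cells. In an unbalanced exchange between 2 chromosomes, a derivative chromosome carries a piece of one joined to a piece of the other, and the cell gains or loses the pieces on either side of the break. An exchange of that kind changes the dose of 2 contiguous stretches, each ending at a breakpoint, and mapping where the peak share changes asks where such ends could lie. Copy number was not measured in these files, and its part in any value below was not tested.

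The KOPN-8 clone lists held 67301 and 64667 peaks, against 70430 and 63585 in the KOPN-8 controls. The 697 clone lists held 63012 and 76495 peaks, against 57154 and 70099 in the 697 controls. Because list lengths differed by more within a group than between clone and control, each stretch is described by its peak share, the percentage of a library's peaks that start in it. Clone and control are compared as the log2 of the ratio of their mean shares, with the range over the 4 clone-control library pairs as its error. The number of reads behind a list is unknown, so no counting interval is given.

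Over the whole chromosome 13 zone the KOPN-8 clone had fewer peaks than either control. It had 324 and 320 peaks, which were 0.481% and 0.495% of its lists, against 461 and 389 peaks in the controls, which were 0.655% and 0.612%. The log2 ratio was -0.38, with a range over pairs of -0.44 to -0.31. In the chromosome 8 zone the clone had 726 and 727 peaks (1.08% and 1.12%), against 856 and 788 in the controls (1.22% and 1.24%). The log2 ratio there was -0.16, with a range over pairs of -0.20 to -0.11. The clone and control libraries did not overlap in either zone.

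The same direction appeared when regions rather than shares were counted. A region is called lost here when both control libraries of a line and neither clone library called it, and gained in the opposite case. In the KOPN-8 clone 50 regions of the chromosome 13 zone were lost and 6 gained, of 644 called in the line (7.76% and 0.932%). In the chromosome 8 zone 54 were lost and 21 gained, of 1023 (5.28% and 2.05%). Over all 90207 regions called in KOPN-8, 3.82% were lost and 3.61% gained. Since the zones were selected on this contrast, nothing is read from the distance between these percentages.

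Along the chromosome 8 zone the lower share of the KOPN-8 clone ran from the centromeric edge to about 131.9 Mb, weakened over the following 8 Mb and was absent in about the last 6 Mb before the telomere. In 1 Mb windows with at least 20 peaks over the 4 KOPN-8 lists, both clone shares lay below both control shares in 15 of 26 windows and above both in 3. Over all such windows of the genome the corresponding background was 25.8% below and 26.6% above. The 15 low windows were all among the 19 windows that end before 140.3 Mb, and the 3 high windows were all among the later 7. The median log2 ratio was -0.36 in those 19 windows and 0.14 in the later 7. On the chromosomes other than 8 and 13 it was 0.02, with 5th and 95th percentiles of -0.50 and 0.35 over 2407 windows.

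**Figure D1:**
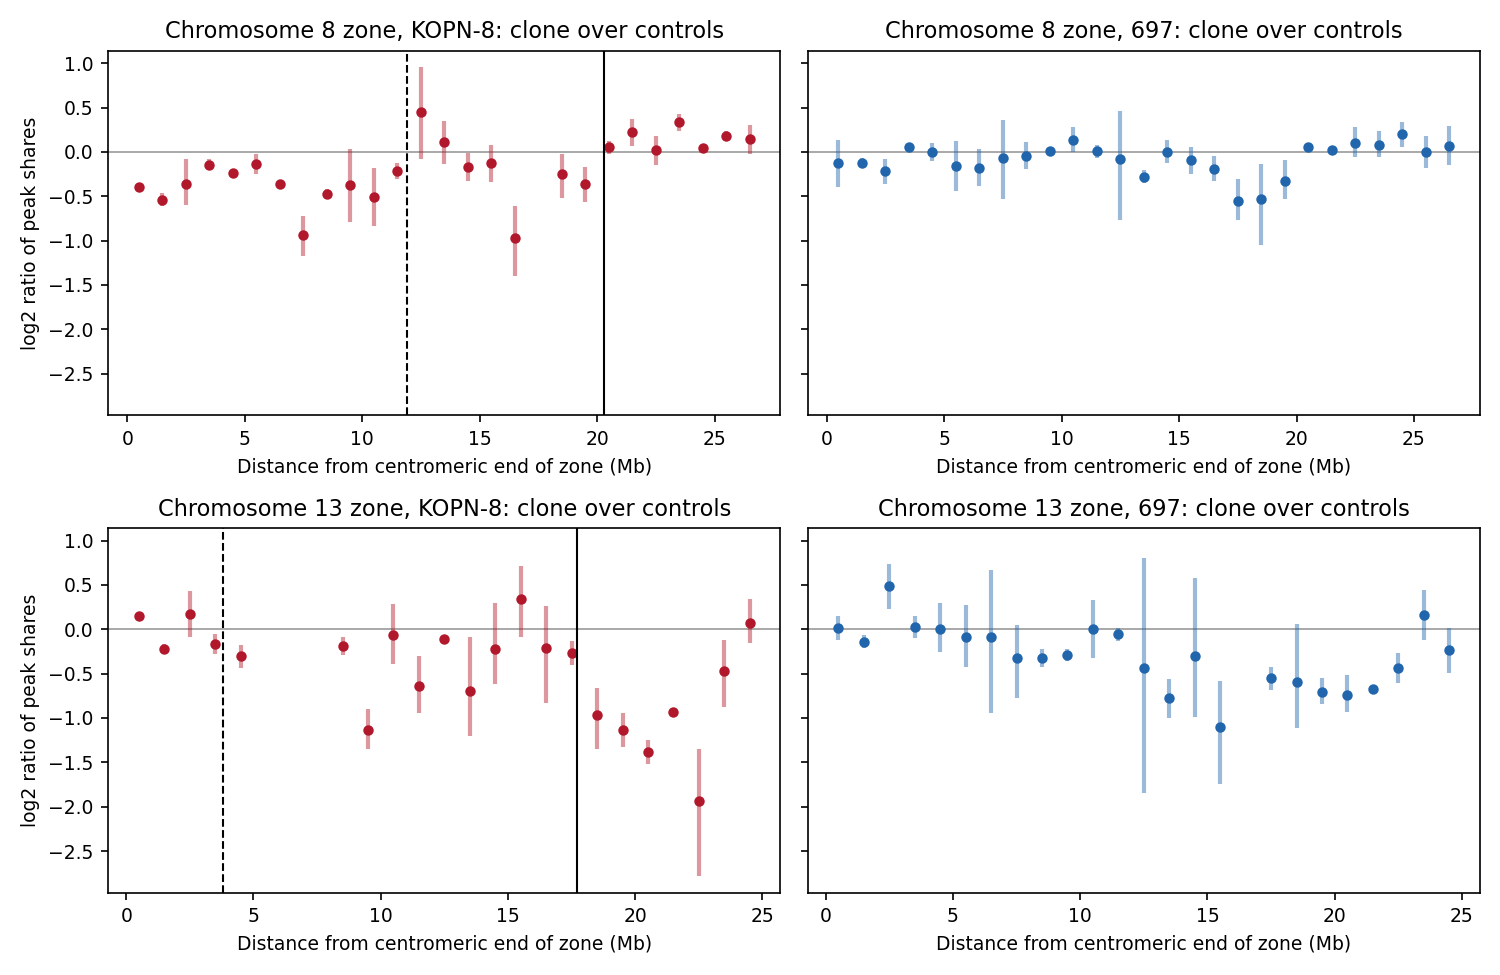
Log2 ratio of mean peak shares, clone over controls, in 1 Mb windows along the chromosome 8 zone (top) and the chromosome 13 zone (bottom), for KOPN-8 (left, red) and 697 (right, blue); bars span the 4 clone-control library pairs, windows with fewer than 20 peaks in the 4 lists of a line are left out, and the solid and dashed lines mark the first and second change positions of KOPN-8. In KOPN-8 the 19 chromosome 8 windows before the solid line have a median of -0.36 and the 7 later ones 0.14, while the 8 last windows of the chromosome 13 zone have a median of -0.95.

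The 6 windows of 1 Mb around MYC, of which the second starts at 127 Mb and the last at 131 Mb, were part of the low side. Together they held 0.201% and 0.210% of the KOPN-8 clone's peaks, against 0.278% and 0.266% of the controls', and the log2 ratio was -0.41 (range over pairs -0.47 to -0.34). All 4 pairs were below 0. Of 230 regions called there in KOPN-8, 20 were lost and 2 gained. By window, the first had 38 and 37 peaks in the clone, against 51 and 47 in the controls (log2 ratio -0.36). The window from 127 Mb had 8 and 10 against 18 and 17, the lowest ratio of the 6 at -0.94, and the window from 128 Mb had 23 and 21 against 33 and 29 (-0.47). These 3 windows were low in both clone libraries. The window from 129 Mb had 13 and 9 peaks in the clone, against 17 and 12 in the controls (-0.37), and it was the 1 window of the 6 in which clone and control shares overlapped. The window from 130 Mb had 15 and 18 against 28 and 20 (-0.51), and the window from 131 Mb had 38 and 41 against 49 and 44 (-0.21). In the 697 clone the same 6 Mb held 218 and 258 peaks, against 205 and 233 in the 697 controls, with a log2 ratio of -0.02 (range over pairs -0.09 to 0.06), so clone and control overlapped there.

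The position of the change was sought by placing a single boundary on a 0.1 Mb grid, at least 1 Mb from either zone end, so that 1 clone fraction on each side described the peak starts with the highest binomial likelihood. In the chromosome 8 zone the best boundary was at 140.3 Mb, where the log likelihood rose by 6.56 natural log units over no boundary. A second position at 131.9 Mb gave 5.64, less than 1 unit lower, and 79 positions between 129.3 and 141.7 Mb lay within 2 units of the best. The search counts each peak of each list as a separate draw, although the lists of a line share many regions. Log units here and below therefore rank positions and give no confidence interval. The library pairs were split between these positions. Clone library 1 placed the boundary at 140.3 Mb with control 1 and at 140 Mb with control 2, whereas clone library 2 placed it at 130.8 and 130.6 Mb. The files thus gave 2 candidate positions on chromosome 8 and did not separate them. The same search between lines gave larger gains at other positions. KOPN-8 controls against all 697 libraries gave 20.3 at 129.4 Mb, and the KOPN-8 clone against them gave 8.32 at 144.6 Mb. A gain of 6.56 is thus not particular to the contrast of clone and control.

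**Figure D2:**
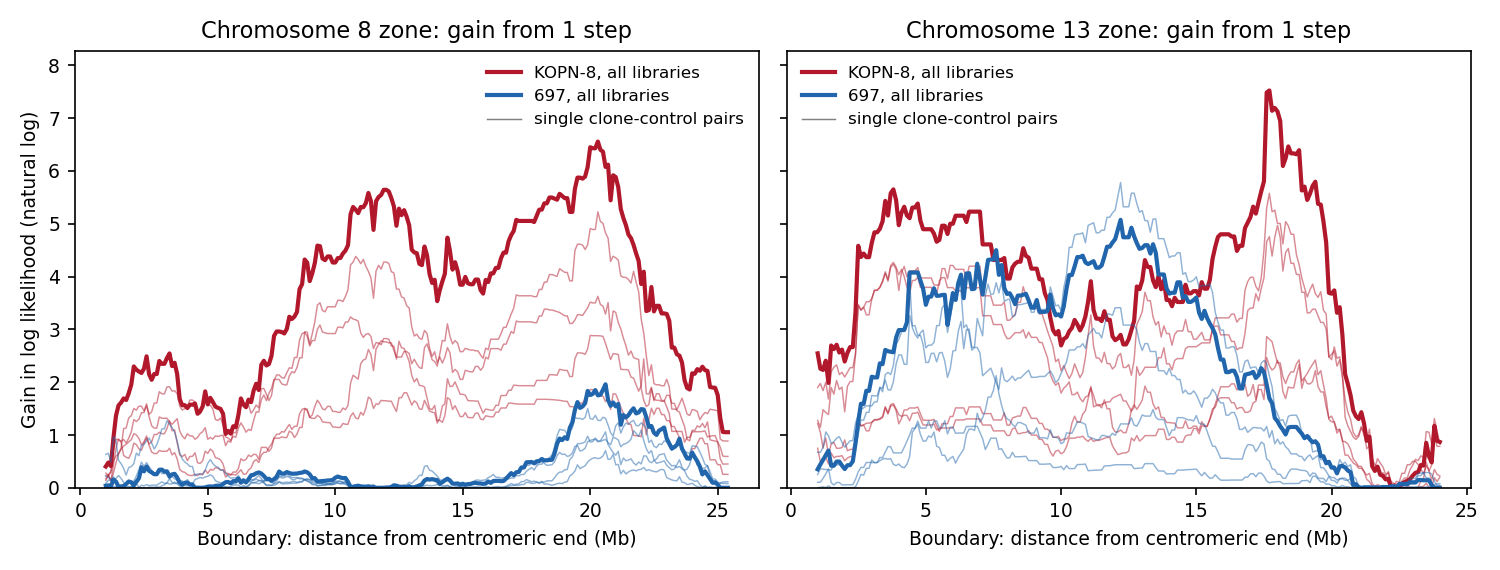
Gain in log likelihood from placing 1 boundary at each position, as distance from the centromeric end of the chromosome 8 zone (left) and of the chromosome 13 zone (right), for all libraries of KOPN-8 (thick red) and of 697 (thick blue) and for each single clone-control pair (thin). KOPN-8 has a first peak of 6.56 and a second of 5.64 on chromosome 8, and 7.52 and 5.65 on chromosome 13; 697 reaches 1.96 on chromosome 8 and 5.07 on chromosome 13.

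The chromosome 8 zone was then divided at both positions, the second of which had to lie at least 5 Mb from the first. Both were fitted to this same clone-control contrast. Some difference in level between the 3 stretches therefore follows from the division and is not read as a result. From 120 to 131.9 Mb the clone had 342 and 332 peaks (0.508% and 0.513% of its lists), against 454 and 408 in the controls (0.645% and 0.642%), a log2 ratio of -0.33 with a range over pairs of -0.34 to -0.32. This was the tightest range of the 3 stretches, and 41 of 529 regions were lost against 7 gained. From 131.9 to 140.3 Mb the clone had 139 and 159 peaks (0.207% and 0.246%), against 177 and 159 in the controls (0.251% and 0.250%), a log2 ratio of -0.15 (-0.28 to -0.02). Here clone library 1 was low and clone library 2 close to the controls, and 6 of 218 regions were lost and 3 gained. From 140.3 Mb to the end the clone had 245 and 236 peaks (0.364% and 0.365%), against 225 and 221 in the controls (0.319% and 0.348%), a log2 ratio of 0.13 (0.07 to 0.19). In this last stretch both clone libraries lay above both controls, with 7 of 276 regions lost and 11 gained. Taking the zone as 2 sides of the 140.3 Mb boundary, the centromeric side had a log2 ratio of -0.28 (-0.33 to -0.23).

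The windows next to the candidate positions did not mark a sharp division. Before 140.3 Mb, the window from 138 Mb had 6 and 8 peaks in the KOPN-8 clone, against 9 and 8 in the controls, and the window from 139 Mb had 15 and 18, against 22 and 21. Past it, the window from 141 Mb had 41 and 44 in the clone, against 37 and 37, and the window from 142 Mb had 53 and 46, against 49 and 50. The log2 ratios of these 4 windows were, in order along the chromosome, -0.25, -0.36, 0.22 and 0.02. The window from 140 Mb, which holds the boundary, had 25 and 23 peaks in the clone, against 24 and 23 (0.05). Clone and control overlapped in that window and in the one from 142 Mb. Past the candidate at 131.9 Mb the next window had 11 and 16 peaks in the clone, against 9 and 11 in the controls (0.45), and the window from 133 Mb had 26 and 31, against 30 and 24 (0.11). Both of these windows overlapped between clone and control. The last 4 Mb before 140 Mb, a stretch with few peaks in KOPN-8 that was singled out after its values were seen, were low again. They held 28 and 35 peaks in the clone, against 48 and 42 in the controls, with a log2 ratio of -0.49 (-0.71 to -0.29), and they form the low block just before 140.3 Mb. In 697 the same 4 Mb also had a lower share in the clone, with 81 and 110 peaks, against 103 and 116 in the controls (-0.34, range -0.49 to -0.20).

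Along the chromosome 13 zone the order was the reverse, with the KOPN-8 clone near its controls at the centromeric end and furthest below them towards the telomeric end. In 1 Mb windows both clone shares lay below both control shares in 15 of 22 windows and above both in 1, the window from 50 Mb. Of the 14 windows that end before 67.7 Mb 8 were low, and 7 of the 8 later windows were. The first of the later windows starts at 67 Mb and holds the boundary (-0.27). The median log2 ratio was -0.20 in the 14 earlier windows and -0.95 in the 8 later ones. All 5 windows from 68 to 73 Mb had log2 ratios of -0.93 or lower, and among the earlier windows with enough peaks the one from 59 Mb was as low, with 6 and 6 peaks in the clone, against 16 and 11 in the controls (-1.14, range over pairs -1.35 to -0.90). The window from 70 Mb had 8 and 9 peaks in the clone, against 24 and 21 in the controls (-1.38, range over pairs -1.52 to -1.25). The window from 72 Mb had 5 and 2 peaks, against 15 and 12 (-1.93, range -2.78 to -1.35), which was under the lowest of the 2407 windows on other chromosomes (-1.57). In the last window of the zone clone and control overlapped: the window from 74 Mb had 18 and 18 peaks in the clone, against 21 and 14 in the controls (0.07).

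The chromosome 13 boundary was also ambiguous. The best position was 67.7 Mb, with a gain of 7.52 log units, and the second was 53.8 Mb, with a gain of 5.65. A total of 22 positions between 53.7 and 69.4 Mb lay within 2 units. The clone-control pairs placed it at 67.7 and 68.0 Mb for clone library 1, and at 53.8 and 67.6 Mb for clone library 2. Without clone library 1, or without control library 2, the best position was 53.8 Mb. Here too the search between lines gave larger gains. Against all 697 libraries the best position was 60.3 Mb, with a gain of 36.9 for the KOPN-8 controls and 13.6 for the KOPN-8 clone.

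Between these positions the chromosome 13 zone also had 3 levels. From 50 to 53.8 Mb the KOPN-8 clone had 101 and 100 peaks (0.150% and 0.155%), against 101 and 98 in the controls (0.143% and 0.154%), a log2 ratio of 0.03 (-0.04 to 0.11), and the groups overlapped. From 53.8 to 67.7 Mb its shares were 0.205% and 0.195%, against 0.266% and 0.231% in the controls, a log2 ratio of -0.31 (-0.45 to -0.17). From 67.7 to 75 Mb it had 85 and 94 peaks (0.126% and 0.145%), against 173 and 144 in the controls (0.246% and 0.226%), a log2 ratio of -0.80 (-0.96 to -0.64). The clone thus had a mean share 0.575 times that of its controls in the last stretch, and 30 of its 244 regions were lost and 0 gained. In the middle stretch 15 of 274 were lost and 1 gained, and in the first 5 were lost (3.97%) and 5 gained. Next to 67.7 Mb, the windows from 65 and 66 Mb had log2 ratios of 0.35 and -0.21 and overlapped between clone and control, while those from 68 and 69 Mb, at -0.97 and -1.13, did not. Next to 53.8 Mb, the windows from 51 and 52 Mb had log2 ratios of -0.22 and 0.17, and the windows from 53 and 54 Mb had -0.16 and -0.30, with both clone shares below both control shares in both of these windows. The window from 53 Mb holds this second position and lies mostly before it. The window from 67 Mb, which holds 67.7 Mb, had -0.27 and is not among those given beside that position. The windows beside the positions were thus not chosen alike, and their differences are not compared. Each likelihood draws on all peak starts on either side.

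**Figure D3:**
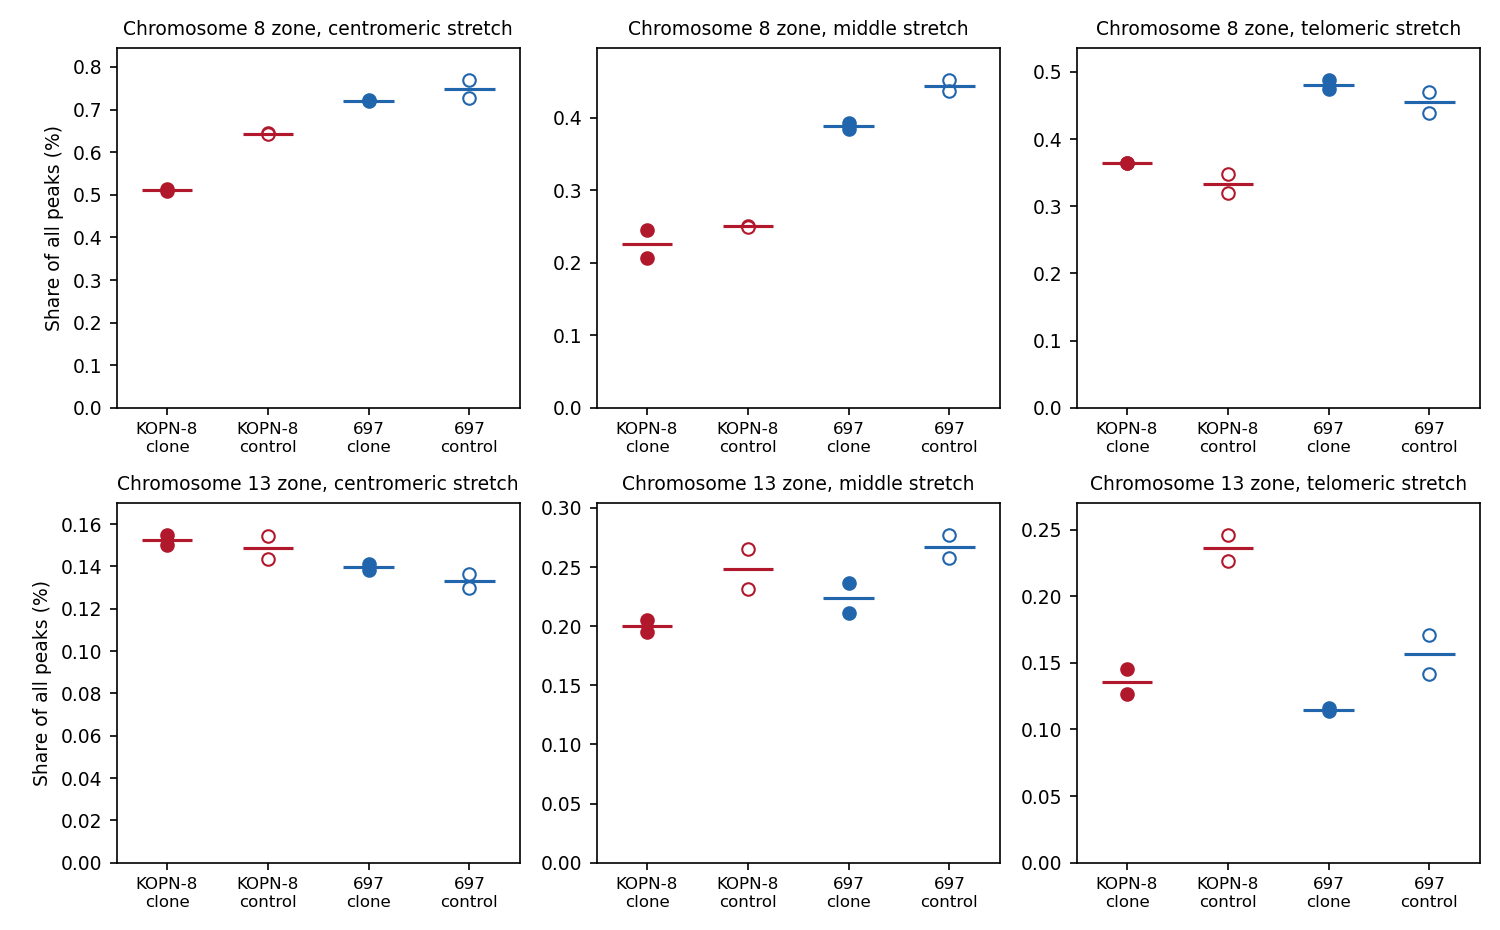
Peak share in each library for the 3 stretches of the chromosome 8 zone (top, divided at 131.9 and 140.3 Mb) and of the chromosome 13 zone (bottom, divided at 53.8 and 67.7 Mb); filled circles are clone libraries, open circles control libraries, bars the means of 2 libraries, and every axis starts at 0. The ratio of KOPN-8 clone to control is lowest in the telomeric stretch of chromosome 13 (0.126% and 0.145% against 0.246% and 0.226%), where the 697 clone is also below its controls.

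In 697, whose clone-control contrast had no part in choosing the zones, the log2 ratio of the whole chromosome 8 zone was close to 0 and differed along it. The 697 clone had 1004 and 1214 peaks (1.59% and 1.59%), against 966 and 1123 in the 697 controls (1.69% and 1.60%). The mean shares were 1.59% ± 0.00447 in the clone and 1.65% ± 0.0623 in the controls (SD, n = 2 each), a log2 ratio of -0.05. The exact permutation test, two-sided, gave p = 0.333, which is the smallest value that 2 against 2 libraries allow. Both clone shares were below both control shares, with a log2 ratio of -0.01 in the closest pair and -0.09 in the furthest. No boundary stood out: all 245 positions tested lay within 2 log units of the best, at 140.6 Mb (gain 1.96). By window, 7 of 27 were low and 4 high in the 697 clone, against a background over all 697 windows of 24.2% low and 25.7% high. By stretch, the 697 log2 ratio was -0.05 from 120 to 131.9 Mb (range over pairs -0.10 to -0.01, against -0.33 in KOPN-8), -0.19 from 131.9 to 140.3 Mb (-0.23 to -0.15, against -0.15 in KOPN-8) and 0.08 beyond (0.01 to 0.15, against 0.13 in KOPN-8). The 697 clone was thus below its controls in all 4 pairs before 140.3 Mb (-0.10, range -0.14 to -0.06) and in 0 of 4 past it, as the KOPN-8 clone was, but its lowest stretch was the middle one, whereas that of the KOPN-8 clone was the first. The difference between the lines was not tested.

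The 697 clone also had a lower share in the chromosome 13 zone. It had 293 and 376 peaks (0.465% and 0.492%), against 306 and 405 in the 697 controls (0.535% and 0.578%). The mean shares were 0.478% ± 0.0188 in the clone and 0.557% ± 0.0300 in the controls (SD, n = 2 each), a log2 ratio of -0.22 with a range over pairs of -0.31 to -0.12. The exact permutation test, two-sided, again gave p = 0.333, the smallest possible. Low windows numbered 10 of 24 against the 24.2% background, and 1 window was high. The 697 boundary was placed at 62.2 Mb (gain 5.07), with 113 positions from 54.3 to 65.5 Mb within 2 units.

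The 697 clone was also below its controls in the telomeric stretch of the chromosome 13 zone. From 67.7 to 75 Mb it had 73 and 87 peaks, against 81 and 120 in its controls, a log2 ratio of -0.45 (-0.59 to -0.29), compared with -0.80 in KOPN-8. From 53.8 to 67.7 Mb the ratio was -0.25 (-0.39 to -0.12), and from 50 to 53.8 Mb it was 0.07 (0.02 to 0.12). Between 62 and 73 Mb, limits set after the values were seen, the KOPN-8 clone had shares of 0.187% and 0.193%, against 0.305% and 0.280% in its controls. The 697 clone had 0.122% and 0.123% there, against 0.168% and 0.211% in its controls. The log2 ratios were -0.62 in KOPN-8 (-0.71 to -0.53) and -0.63 in 697 (-0.79 to -0.45), with all 4 pairs below 0 in each line. Within these limits the lines did not move together throughout. In the window from 65 Mb the KOPN-8 clone had 6 and 9 peaks, against 6 and 6 in its controls (0.35, its highest in the zone), whereas the 697 clone had 6 and 4, against 10 and 10 in its controls (-1.11, its lowest among windows with enough peaks). Of the windows of the whole zone with enough peaks, 8 of 22 in KOPN-8 and 7 of 24 in 697 lay below the 5th percentile of their line's windows on other chromosomes (-0.50 and -0.48). Those of KOPN-8 include the windows from 59 and 61 Mb, outside these limits. The size of the difference between the lines was not tested.

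Seen together with the rest of chromosomes 8 and 13, the zones contain the ends of 2 long low stretches of the KOPN-8 clone, neither of them at a single level. Chromosome 8 up to 120 Mb had 2576 and 2555 peaks in the KOPN-8 clone, against 3603 and 3231 in the controls. The log2 ratio there was -0.39 (-0.42 to -0.36). From 120 to 131.9 Mb it was -0.33 (-0.34 to -0.32), so the 2 ranges did not meet. Just outside the zone the window from 119 Mb had a log2 ratio of -0.32, and just inside it the window from 120 Mb had -0.40. Chromosome 13 before 50 Mb had 710 and 671 peaks in the clone, against 702 and 636 in the controls (0.07, range 0.05 to 0.08), and the windows from 49 and 50 Mb on either side of that limit had 0.19 and 0.14. Beyond 75 Mb it had 807 and 772, against 1226 and 1057 (-0.51, range -0.54 to -0.47). From 67.7 to 75 Mb the ratio was lower, at -0.80 (-0.96 to -0.64). The windows from 74 and 75 Mb had 0.07 and -1.01. The low part of chromosome 8 thus lay on the centromeric side of its candidate positions, and the low part of chromosome 13 on the telomeric side.

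In 697 the stretches outside the zones had ratios closer to 0 or above it. Chromosome 8 up to 120 Mb had a log2 ratio of -0.07 in the 697 clone (-0.11 to -0.03), chromosome 13 before 50 Mb had 0.14 (0.08 to 0.20), and chromosome 13 beyond 75 Mb had 0.02 (-0.02 to 0.06). When the boundary of KOPN-8 was sought over the whole of each chromosome instead of within the zone, it moved to 131.3 Mb on chromosome 8 and to 53.8 Mb on chromosome 13. Both are within 1 Mb of the second positions found inside the zones. Peak lists hold no reads across a junction, so whether the 2 stretches are joined, and whether they changed in copy number, was not tested.

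The calls missing from the KOPN-8 clone were mostly of weak regions. Regions called in both controls were put into 3 classes of equal percentile width by the smaller of their 2 fold enrichment percentiles in the control lists. From 120 to 131.9 Mb of chromosome 8, the clone libraries called 57.3% and 54.7% of the 117 regions in the weakest class. From 140.3 Mb on they called 77.3% and 75% of 44. On the chromosomes other than 8 and 13 they called 74.7% and 72.8% of 13309. Chromosome 8 up to 120 Mb had 52.8% and 54.3% of 865, so a low percentage was not particular to the zone. The zone and its boundaries came from the same clone-control contrast, so nothing is read from the distance between these percentages. The middle stretch of chromosome 8 was uneven, with 53.7% and 75.6% of 41.

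On chromosome 13 the same measure fell along the zone. The KOPN-8 clone libraries called 81.0% and 76.2% of the 21 weakest-class regions from 50 to 53.8 Mb, 59.5% and 57.1% of 42 from 53.8 to 67.7 Mb, and 33.3% and 38.9% of 54 from 67.7 to 75 Mb. In the strongest class all 84 regions of the chromosome 13 zone were called in both clone libraries, and in the chromosome 8 zone 99.1% and 100% of 234 were. On the chromosomes other than 8 and 13 the clone libraries called 99.7% each of 17437, so the zones were near that share. The last chromosome 13 stretch also held more weak regions to begin with: 54.5% of its 99 regions called in both controls were in the weakest class, against 27.8% on other chromosomes. The part of that mixture in the lower peak share was not tested, but within the weakest class alone this stretch had the lowest percentages of the 6. Chromosome 13 beyond 75 Mb, outside the zone, had 47.1% and 50.6% of 312 in that class. Here too the stretches came from the same contrast, so these percentages are a description.

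**Figure D4:**
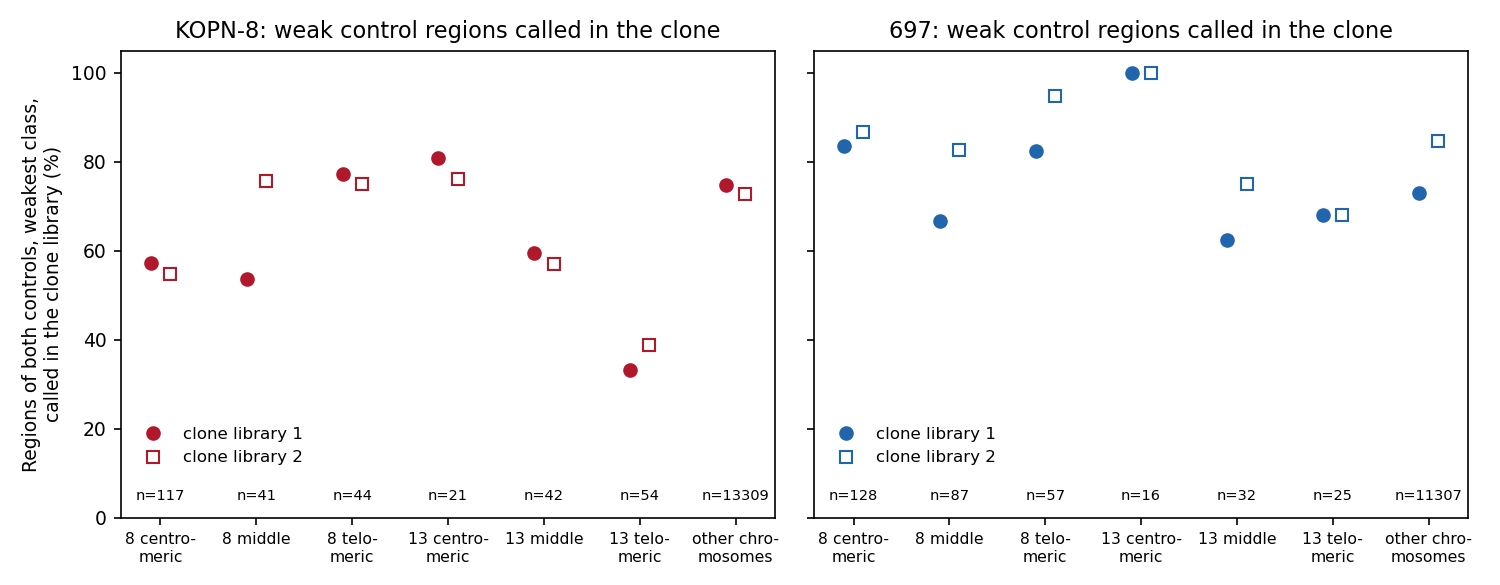
Percentage of the regions called in both controls, in the weakest of 3 strength classes, that each clone library also called, for the 3 stretches of each zone and for the chromosomes other than 8 and 13, in KOPN-8 (left) and 697 (right); n is the number of regions. KOPN-8 falls to 33.3% and 38.9% in the telomeric stretch of chromosome 13, against 74.7% and 72.8% on other chromosomes; 697 has 68.0% in both clone libraries there, against 72.9% and 84.6%.

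In 697 the weakest class was called in 68.0% of 25 regions by each clone library from 67.7 to 75 Mb of chromosome 13, against 72.9% and 84.6% of 11307 on other chromosomes. From 53.8 to 67.7 Mb the values were 62.5% and 75% of 32, and from 50 to 53.8 Mb all 16 regions were called in both. On chromosome 8 they were 83.6% and 86.7% of 128 from 120 to 131.9 Mb, 66.7% and 82.8% of 87 from 131.9 to 140.3 Mb, and 82.5% and 94.7% of 57 beyond it. Clone library 1 of 697, which has the shorter list, was lower than clone library 2 in each of the chromosome 8 stretches, and the part of list length in these percentages was not tested.

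Density also varied along the zones. To set the zones beside windows of like density elsewhere, 1 Mb windows were grouped by their total of peaks over the 4 lists of the line. In KOPN-8 windows of 20 to 60 peaks, the pooled log2 ratio was -0.39 in the chromosome 8 zone before 140.3 Mb, -1.26 in the chromosome 13 zone past 67.7 Mb (3 windows) and -0.10 over 701 windows on other chromosomes. In windows of 60 to 120 peaks it was -0.29, -0.64 and 0.01 (7, 4 and 893 windows). In windows of over 120 peaks the chromosome 8 zone before 140.3 Mb had -0.25 (7 windows), against 0.07 over 813 windows elsewhere. The 1 window of that density grouped with the chromosome 13 zone past 67.7 Mb had -0.27. It starts at 67 Mb and lies mostly before that boundary. No window wholly past 67.7 Mb had over 120 peaks, so the densest group does not describe that stretch. The KOPN-8 zones and boundaries came from this same contrast, so nothing is read from their distance to other chromosomes. In 697 the chromosome 8 zone before 140.3 Mb had -0.55, -0.16 and -0.08 in the 3 density groups (1, 5 and 14 windows). Other chromosomes had -0.03, 0.0014 and 0.02 in 697. In the chromosome 13 zone 697 had -0.49 and -0.40 past 67.7 Mb in the 2 less dense groups (6 and 2 windows). Before 67.7 Mb it had -0.33, 0.06 and 0.02 in the 3 groups (10, 5 and 1 windows). These differences were not tested.

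The regions lost in the KOPN-8 clone were mostly weak. The median of the smaller control percentile was 12.4 for the 54 lost on chromosome 8 and 16.1 for the 50 lost on chromosome 13, and 2 and 0 of them were in the stronger 50% of both control lists. These values are not given for regions lost on other chromosomes, so the weakness is not read as a trait of the zones. Of the chromosome 8 losses, 41 lay before 131.9 Mb, 6 between 131.9 and 140.3 Mb and 7 beyond. The strongest lost region on chromosome 8 was chr8:129243078-129243733, 656 bp wide, with deposited fold enrichments of 8.49 and 7.52 in the controls (percentile 65.3), and it was called in none of the 697 libraries. The next was chr8:121311037-121311509, with folds of 6.27 and 6.80 in the controls (percentile 56.5), followed by chr8:124191159-124191440, chr8:131155320-131155596 and chr8:134657442-134657780, with folds between 5.03 and 5.95. These 5 regions were called in the 2 KOPN-8 control libraries and in no other library.

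The gained regions on chromosome 8 were weaker. The strongest by the same rule was chr8:139177946-139178258, with folds of 4.69 and 5.21 in the KOPN-8 clone, and it was also called in all 4 libraries of 697, with folds of 7.08 and 6.89 in the 697 clone and 7.11 and 7.70 in the 697 controls. It lay about 1 Mb before the 140.3 Mb boundary. The regions chr8:144923067-144923595 (folds 5.60 and 4.53 in the KOPN-8 clone) and chr8:141133484-141133752 (5.50 and 4.50) followed, both beyond the boundary and both also called in 697 clone library 1. In each case the KOPN-8 controls made no call.

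On chromosome 13 the strongest lost region, chr13:59686533-59686868, had folds of 5.27 and 5.93 in the KOPN-8 controls (percentile 43.0). It was called in all 4 libraries of 697, with folds of 6.27 and 7.61 in the 697 clone and 6.55 and 8.52 in the 697 controls. The regions chr13:58891938-58892465, chr13:67693741-67694101, chr13:51305559-51305841 and chr13:72187296-72188005 had folds between 5.06 and 5.97 in the KOPN-8 controls and no call in any other library. The third of these starts centromeric of both candidate positions and the second within 0.1 Mb of 67.7 Mb, while the last lies in the stretch with the most losses. The 3 strongest gained regions, chr13:52454812-52455073, chr13:53673645-53674019 and chr13:50999946-51000227, all start before 53.8 Mb and had folds between 4.03 and 4.97 in the clone. The 5 gains of the first stretch were thus followed by a gap of 11933305 bp before the last gained region, at 65606950.

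Shared changes at single regions were rare everywhere. On the chromosomes other than 8 and 13, 33 of 119593 regions were lost in both clones and 81 gained in both. In each zone 0 regions were lost in both clones, 0 were gained in both, and 0 were lost in one and gained in the other. At so low a background nothing is read from these counts of 0. In the 697 clone 26 regions were lost and 47 gained on chromosome 8, of 1504 called in the line, and 14 were lost and 15 gained on chromosome 13, of 555. The background over all 95368 regions called in 697 was 1.85% lost and 4.3% gained. The chromosome 8 zone had 1.73% lost and 3.13% gained, and the chromosome 13 zone 2.52% lost and 2.70% gained. Over each whole zone, losses were thus near the background and gains below it, but the stretches differed. From 67.7 to 75 Mb of chromosome 13, 5% of 140 regions were lost and 0.714% gained. From 50 to 53.8 Mb, 0.870% of 115 were lost and 6.09% gained. Past 140.3 Mb of chromosome 8, 0.769% of 390 were lost and 5.64% gained. These differences were not tested. The strongest 697 losses were chr8:134926591-134926940 (folds 6.40 and 6.69 in the 697 controls) and chr13:51405685-51406025 (5.56 and 4.82), and the second of these was called in all 4 KOPN-8 libraries. The strongest 697 gains were chr8:125188629-125188909 (folds 5.75 and 6.15 in the 697 clone) and chr13:50203361-50203909 (5.71 and 5.76).

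Strong regions were present in every library on both sides of the candidate positions. In the chromosome 8 zone 410 of 1826 regions (22.5%) were called in all 8 libraries, and in the chromosome 13 zone 106 of 964 (11.0%), against 20.8% on the other chromosomes. The strongest on chromosome 8 was chr8:126010215-126011269, 1055 bp wide, with folds of 18.0 and 17.8 in the KOPN-8 clone and 17.0 and 17.9 in its controls, and 17.7 and 18.9 in the 697 clone and 18.5 and 18.8 in its controls. The next were chr8:120844684-120845762 and chr8:133787220-133788214. On chromosome 13 it was chr13:60737432-60738685, with folds of 20.6 and 20.7 in the KOPN-8 clone and 21.7 and 20.0 in its controls, followed by chr13:52585605-52586863 and chr13:59527726-59528217. The chromosome 8 regions starting at 126010215 and 120844684 lie in the low stretch before 131.9 Mb, and the chromosome 13 regions starting at 60737432 and 59527726 in the middle stretch, where weak regions were called less often in the clone.

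The regions called in a single library were the other extreme. They made up 30.5% of the chromosome 8 zone and 45.2% of the chromosome 13 zone, against 29.5% on the other chromosomes, so the chromosome 8 zone was near that share. Within chromosome 13 they were 22.6% of the 168 regions from 50 to 53.8 Mb, 51.3% of 478 from 53.8 to 67.7 Mb and 48.1% of 318 from 67.7 to 75 Mb. By line, 17.6% of the chromosome 8 regions were called in KOPN-8 only and 44.0% in 697 only, while on chromosome 13 42.4% were called in KOPN-8 only and 33.2% in 697 only. On the other chromosomes 28.1% were called in KOPN-8 only and 31.8% in 697 only.

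The regions called in all 4 libraries of 697 gave a yardstick that the KOPN-8 controls did not define. Of 334 such regions from 120 to 131.9 Mb of chromosome 8, the KOPN-8 clone libraries called 63.8% and 64.4% and the KOPN-8 controls 72.8% and 70.4%. From 140.3 Mb on, the clone libraries called 72.2% and 70.4% of 216 and both controls 68.5%. On chromosome 13 from 67.7 to 75 Mb the clone libraries called 37.5% and 50% of 56, against 55.4% and 50% in the controls, so the groups met there. On other chromosomes the clone called 72.7% and 73.8% of 38610, against 75.1% and 71.7% in the controls. These percentages come from the same KOPN-8 calls on which the zones were selected and are no further support.

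The lines themselves differed in the share of their peaks on chromosome 8. From 140 Mb on, the 4 KOPN-8 libraries had a mean share of 0.352% ± 0.0204 and the 4 697 libraries 0.476% ± 0.0207 (SD, n = 4 each), a log2 ratio of -0.44. The ranges, 0.324% to 0.368% in KOPN-8 and 0.447% to 0.495% in 697, did not overlap, and the exact permutation test, two-sided, gave p = 0.0286, the smallest that 4 against 4 allows. Libraries of 1 line share their origin, so this p compares these 2 lines and not a class of leukemia. The 140 Mb limit lies near the 140.3 Mb boundary fitted to the KOPN-8 clone and controls, whose shares enter this test. Each set of 4 libraries pools 2 clone and 2 control libraries, so they are not 4 independent samples of a line. On chromosome 13 from 50 to 55 Mb the means were 0.173% ± 0.00551 in KOPN-8 and 0.177% ± 0.00483 in 697 (SD, n = 4 each), a log2 ratio of -0.03. The ranges overlapped, and the exact permutation test, two-sided, gave p = 0.286. A lower share in KOPN-8 was not limited to the end of chromosome 8. Over the whole chromosome 8 zone the KOPN-8 libraries lay between 1.08% and 1.24%, and the 697 libraries between 1.59% and 1.69%. From 120 to 131.9 Mb they lay between 0.508% and 0.645% in KOPN-8 and between 0.719% and 0.768% in 697, and from 131.9 to 140.3 Mb between 0.207% and 0.251% in KOPN-8 and between 0.384% and 0.451% in 697. The differences over the whole zone and these stretches were not tested.

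The window ratios of the lines were weakly related. Over the 26 chromosome 8 windows with enough peaks in both lines, Spearman's rho between the KOPN-8 and the 697 log2 ratios was 0.36, over 21 chromosome 13 windows it was 0.42, and over 2357 windows of other chromosomes it was 0.23. The points share base composition and gene density, and neighbouring windows are not independent, so these are descriptions. The zones thus held a relation between the lines of the same sign as the rest of the genome, and larger in these few windows.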

How the data were processed

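Per the submitters' processing notes, the tools were Bowtie2 and MACS2 and the genome build hg19; their versions and settings were not given in the sources at hand. The deposited files hold 1 peak list per library, with the fold enrichment (a ratio) the authors' caller gave each peak; this fold was used only to rank peaks within a list. Between 0.946% and 1.04% of peak numbers were missing from the lists, and read depth is unknown, so weak peaks may be present or absent by depth alone. Narrow windows rest on few peaks.

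From the lists, peak shares, merged regions, lost and gained regions, strength classes and likelihood boundaries were computed with Python 3.11.15, numpy 2.4.6, pandas 2.3.3 and scipy 1.17.1. The boundary search and the calls of lost and gained regions were tried on simulated data, and the permutation tests were not. The simulated boundary was a single step, larger than the one fitted on chromosome 8. That trial therefore does not show how well the reported positions are located. Differences were tested by exact permutation over libraries, for 697 and between lines. Labels call the libraries biological replicates without naming separate cultures, so p-values measure the spread between libraries, which may be technical. Named regions were, per zone, the 5 lost and 3 gained regions of KOPN-8 and the 2 lost and 2 gained of 697 with the highest smaller percentile, and the top 3 called in all 8 lists. Zones, windows and rules were chosen with earlier results of these data known; the 62 to 73 and 136 to 140 Mb stretches and the division into 3 were chosen after the values were seen. No hg19 annotation was used, so no gene is named beside a region. Replicate numbers were not used to pair libraries. Alternatives were the stronger 50% of each list, lists of equal length, covered bases, other denominators, 50% overlap, whole chromosomes and leaving out each library.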

Additional observations from a re-analysis of the deposited data

How the results depend on the processing

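Of 78 alternatives to 18 results, other than leaving out a library, 59 were counted as the same and 19 were not. Of these 19, 2 reversed a sign, and the cause was not tested. Same meant within the SD over library pairs for boundaries and KOPN-8 ratios, and of similar size for counts. That SD was 5.46 Mb for the chromosome 8 boundary, so the 144.5 Mb below counts as the same. Tested ratios only had to keep their sign and their side of the 0.05 threshold, whatever their size. In 697, 2 against 2 libraries could not pass that threshold, so only the sign could differ. The boundary on chromosome 8 moved to 131.3 Mb over the whole chromosome and, with an alternative chosen after seeing the data, to 144.5 Mb from the share of weakest-class control regions called in the clone; that position lies outside the 129.3 to 141.7 Mb within 2 log units of the best, while the share over all control regions gave 140.9 Mb. The boundary on chromosome 13 moved to 53.8 Mb over the whole chromosome, to 51.6 Mb with the stronger 50% of each list and to 53.7 Mb from gained against lost regions. With that alternative and another chosen after seeing the data, it moved to 53.3 Mb from the share of control regions called in the clone and to 52.4 Mb from that share in the weakest class. With the stronger 50% of each list, the centromeric side of chromosome 8 in KOPN-8 had a log2 ratio of -0.18 and the telomeric side of chromosome 13 -0.43, or -0.64 with lists of equal length. The line difference on chromosome 13 from 50 to 55 Mb reversed to 0.10 with the stronger 50% (exact permutation p = 0.0571) and to 0.033 over covered bases (exact permutation p = 0.4). Counts fell with the stronger 50%, to 35 and 15 lost in KOPN-8 and 9 and 4 lost in 697 on chromosomes 8 and 13, with 18 and 5 gained in 697, or 28 and 8 with lists of equal length.

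Without each library in turn, the KOPN-8 boundary ranged from 130.8 to 140.3 Mb on chromosome 8 (130.8 Mb without clone library 1) and from 53.8 to 68.0 Mb on chromosome 13. The KOPN-8 ratios ranged from -0.32 to -0.24 and 0.07 to 0.19 on the sides of chromosome 8, and from -0.21 to -0.13 and -0.90 to -0.70 on those of chromosome 13. The 697 ratios ranged from -0.09 to -0.01 and from -0.27 to -0.16, and the line ratios from -0.47 to -0.40 and from -0.05 to -0.01. Leaving out a library loosens the definition of a lost or gained region. Counts then ranged in KOPN-8 from 88 to 166 lost and 31 to 66 gained on chromosome 8, and 69 to 178 lost and 10 to 61 gained on chromosome 13. In 697 they ranged from 36 to 147 lost and 59 to 247 gained, and from 18 to 112 lost and 22 to 86 gained.

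With the replicate number as a block, the boundaries stayed at 140.3 and 67.7 Mb and the ratios at -0.28, 0.13, -0.17 and -0.80 in KOPN-8 and -0.05 and -0.22 in 697, and no call changed. Deviations of same-numbered libraries over 2 Mb windows correlated at -0.13 in KOPN-8 and 0.24 in 697, over 2 pairs a line. In 697 the libraries numbered 2 also had the longer list in both clone and control. Whether same-numbered libraries share a batch was not tested.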
